A study of Arabidopsis thaliana with 6 samples.

Results

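The genes described here are those protein-coding genes of the chloroplast genome that have a probe set of their own, grouped by the complex their products enter. Of 22746 probe sets that are not controls, 69 were annotated to a single gene of this genome, each to a different gene, and all 69 came from plastid locus tags. They comprise 5 genes of photosystem I, 15 of photosystem II, 6 of the cytochrome b6f complex, 6 of the ATP synthase, 10 of the NDH complex, rbcL of Rubisco, 4 of the plastid RNA polymerase, 7 of the large and 8 of the small ribosomal subunit, and 7 others. A further 8 probe sets that carry 2 plastid gene identifiers, among them those of rpl2, ndhB and ycf2, were left out.

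RNA came from whole Arabidopsis thaliana seedlings at 9 days of age, either myb3r1 myb3r4 double mutants or wild type, both of accession Col-0. Both grew untreated on sucrose-containing agar medium in continuous light, and the labels name neither the mutant alleles nor the number of seedlings in a sample. Both mutated genes encode transcription factors of the MYB family that are known to control the expression of mitotic genes. The labels name 3 experimental sets, with a mutant array and a wild-type array in each, 6 arrays in all. Whether a set was a culture of its own is not stated, so p-values cover the spread among these arrays only, and that spread may be technical. No probe set was annotated to MYB3R1 or MYB3R4 alone (0 of 22746), so the mutated genes themselves could not be checked.

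The chloroplast genome encodes core subunits of the photosynthetic complexes and part of the machinery that expresses them, while the nucleus encodes the remaining subunits and most regulators. A bacterial-type polymerase with plastid-encoded core subunits transcribes mainly photosynthesis genes, and nucleus-encoded phage-type polymerases transcribe the rpoB unit, accD and other housekeeping genes. Most plastid genes are read as parts of polycistronic transcripts that are cut, trimmed and edited afterwards, so genes of a unit share a precursor RNA and their values are not independent of each other. Plastid mRNAs mostly lack the long poly(A) tails of nuclear mRNAs, and poly(A) stretches added to them mark them for decay.

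A level below is the log2 of a probe set's signal over its array's median signal. A difference is mutant minus wild type on that log2 scale, and fits took the 3 sets as blocks. A level cannot be set against that of another gene, since probe sets differ in brightness. RCA, which encodes Rubisco activase and was the only tested marker of green tissue out of 12 listed, had levels of 6.99, 6.70 and 6.77 in the mutant arrays of sets 1 to 3, against 6.57, 6.33 and 6.47 in the wild-type arrays. In the same arrays the mean 3′ minus 5′ signal of the control genes, a sign of RNA quality, was 1.50, 1.92 and 2.44 in the mutant arrays of sets 1 to 3 and 1.07, 3.04 and 3.22 in the wild-type arrays. The probe set of 25S ribosomal RNA stood at 1.87 in the mutant array of set 1 and between 5.46 and 5.99 in the other 5 arrays. What part these array properties had in the plastid values was not tested, beyond the fits without a set and with the control signal as a covariate that are given below.

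The comparison asked whether chloroplast-genome transcripts differ between the double mutant and wild type. No plastid-encoded gene passed the test: 0 of 69 had an adjusted p under 0.05 in limma, where 0.528% of all 13648 tested probe sets passed. The direction depended on the experimental set: 56 of the 69 genes were higher in the mutant in set 1, 57 were lower in set 2 and all 69 were lower in set 3. Over all tested probe sets the corresponding shares were 58.5% higher in set 1, 46.8% lower in set 2 and 43.6% lower in set 3. The median difference of the 69 genes was 0.59, -0.26 and -0.43 in sets 1 to 3, and -0.06 in the fit over all sets, against 0.06 for all tested probe sets. In that fit 41 plastid genes were below and 28 above 0, where 41.7% of all tested probe sets were below. With the median division of the arrays undone 55 plastid genes were below and 14 above, and with quantile normalization 56 below and 13 above. In those fits the median of all tested probe sets was -0.07 and -0.01, respectively. In whole seedlings a difference in the number of plastid-rich cells and one in plastid RNA per cell cannot be told apart.

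The medians of the 10 groups, given below for each, turned sign with the processing. As deposited 7 were below and 3 above 0, between -0.14 (RNA polymerase) and 0.10 (the 7 other genes). With quantile normalization, with the offset of 50, with the median division undone and without set 1 all 10 were below 0. Above 0 were all 10 without set 3, 8 without set 2 and 5 among the brightest 40% of probe sets, and with the 3′ minus 5′ covariate 9 were above 0 and photosystem II was at -0.03. Among all tested probe sets the median was 0.06 as deposited, -0.01 with quantile normalization, -0.06 with the offset and -0.07 with the division undone. Without set 1 that median was 0.04. Of the 31 genes described by their array values, 14 turned sign without set 1, 1 without set 2, 4 without set 3 and 7 with the covariate.

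The reversal between set 1 and the other sets was common among plastid genes. A difference above 0 in set 1 and below 0 in sets 2 and 3 was found for 45 of 69 genes (65.2%), against 14.6% of all tested probe sets. A difference below 0 in every set was found for 12 genes (atpH, ndhH, petD, psbB, psbD, psbE, psbF, psbT, rpl22, rpl36, rpoB and rps14), against 15.6% of all tested probe sets, so the plastid share, 12 of 69, lay near the background. No plastid gene (0 of 69) was higher in the mutant in every set, against 26.3%. At an unadjusted p under 0.05, 7 plastid genes were lower (psbB, rps14, ndhH, rpoB, psbT, rpl36 and petD) where 4.81% of all probe sets were, and 0 were higher where 12.6% of all were. In 2 genes, psbF and rpl36, the 3 mutant arrays lay below the 3 wild-type arrays, against 4.57% of all tested probe sets, and in 0 they lay above, against 8.15%.

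**Figure D1:**
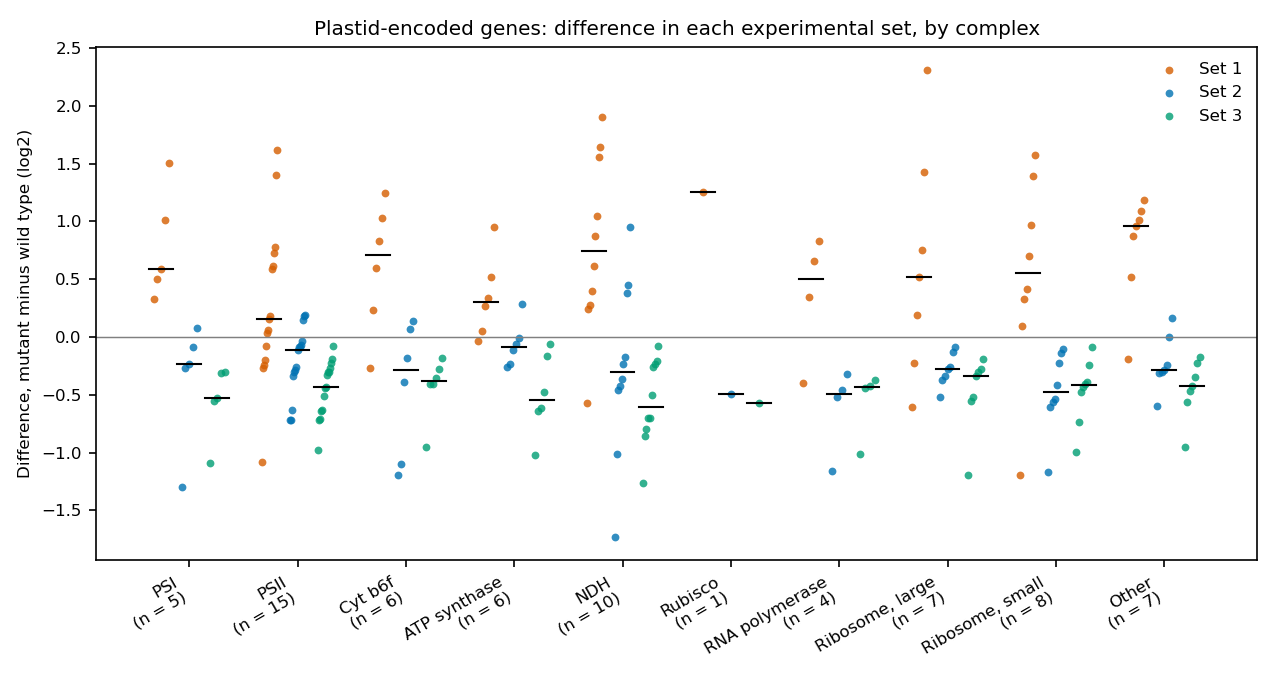
Difference between mutant and wild type (log2) of each plastid-encoded gene in each of the 3 experimental sets, grouped by complex; each point is 1 gene and black lines are medians. Set 1 points lie mostly above 0 (56 of 69), while set 2 points lie mostly below 0 (57 of 69) and all 69 set 3 points lie below 0.

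Photosystem II splits water and feeds electrons into photosynthesis, and its plastid-encoded genes include the core subunits psbA to psbF. Of its 15 genes 11 were below and 4 above 0, with a median difference of -0.14 and set medians of 0.16, -0.12 and -0.43. The gene nearest to the threshold was psbB, which encodes the inner antenna protein CP47. Its levels were 2.76, 1.37 and 1.18 in the mutant arrays of sets 1 to 3, against 3.84, 2.01 and 1.90 in the wild-type arrays. The mutant array lay below its wild-type partner in each set, although the genotypes overlapped because both set 1 arrays were high. The difference of psbB was -0.81 (SE 0.15, adjusted p = 0.0642), or 1.75-fold lower in the mutant, with set differences of -1.08, -0.64 and -0.71.

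The call of psbB turned on the processing. In limma it passed once the arrays' median division was undone (adjusted p = 0.0390) or an offset of 50 signal units was added before the log (adjusted p = 0.0376). The control genes' 3′ minus 5′ signal as a covariate gave an adjusted p of 0.0113 in limma, and leaving out set 1 or set 2 gave 0.0318 and 0.0347. It missed the threshold with quantile normalization (adjusted p = 0.0533), without set 3 (adjusted p = 0.111), among the brightest 40% of probe sets (adjusted p = 0.0645) and without any filter on dim probe sets (adjusted p = 0.111). Taking the arrays as unpaired gave an adjusted p of 0.764 in limma. Over all 10 alternatives its difference ranged between -0.95 and -0.67.

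psbT, a small photosystem II subunit gene that follows psbB in the same transcription unit, had a difference of -0.63 (SE 0.18, adjusted p = 0.161) and set differences of -0.20, -0.72 and -0.98. psbH, further along the unit, differed by -0.06 (SE 0.16). psbA encodes the D1 protein of the reaction centre, which is replaced continuously in the light, and its levels were 5.85, 3.44 and 3.07 in the mutant arrays of sets 1 to 3, against 5.23, 3.78 and 3.71 in the wild-type arrays. Both set 1 arrays were high in psbA, and its difference of -0.12 (SE 0.23, adjusted p = 0.805) was smaller than the spread between sets. psbD and psbC, the reaction centre protein D2 and the antenna protein CP43, had levels of 1.87, 0.91 and 0.62 in the mutant and 2.11, 0.99 and 0.71 in wild type for psbD and 4.02, 3.80 and 3.12 in the mutant and 3.43, 3.89 and 3.39 in wild type for psbC. They differed by -0.14 (SE 0.14) and 0.08 (SE 0.19), and that of psbC was -0.10 under quantile normalization. psbE and psbF encode the subunits of cytochrome b559. psbF had levels of 5.69, 5.62 and 5.55 in the mutant arrays of sets 1 to 3, against 5.77, 5.92 and 5.77 in the wild-type arrays, with no overlap, and differed by -0.20 (SE 0.13, adjusted p = 0.439). psbE differed by -0.21 (SE 0.14). The highest difference in the complex was that of psbN, which lies on the strand opposite psbT and psbH and is known for a product needed in assembly, at 0.35 (SE 0.35, adjusted p = 0.629). Its levels were 0.72, 2.11 and 1.57 in the mutant arrays of sets 1 to 3, against -0.90, 1.96 and 2.29 in the wild-type arrays. Its set differences of 1.62, 0.15 and -0.72 ran in opposite directions. The 6 remaining genes encode small membrane subunits: psbI, psbJ, psbK and psbL lay between -0.17 (psbK) and -0.09 (psbL), and psbM and psbZ at 0.22 and 0.20. Of these, psbZ had the widest contrast between sets, at 1.40, -0.29 and -0.51.

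Photosystem I passes electrons to ferredoxin, with psaA and psaB encoding the pair of large proteins that hold its reaction centre. Of its 5 genes 2 were below and 3 above 0, the median was 0.03 (-0.07 with quantile normalization) and set medians were 0.59, -0.24 and -0.52. psaA showed the widest spread over sets of any plastid gene, with levels of 4.88, 0.63 and 0.36 in the mutant arrays of sets 1 to 3, against 4.55, 0.55 and 0.68 in the wild-type arrays. It was 19.0-fold higher in set 1 than in set 2 and 22.8-fold higher than in set 3 in the mutant, and 16.0-fold and 14.7-fold higher in wild type. Within a set the genotypes lay close together, and the difference was 0.03 (SE 0.16, adjusted p = 0.939). The next gene of the same unit, psaB, had levels of 6.79, 6.34 and 6.32 in the mutant and 6.21, 6.43 and 6.63 in wild type, a spread of under 1 log2 unit, and a difference of 0.06 (SE 0.18). psaC, for the iron-sulfur subunit that docks ferredoxin, had levels of 4.01, 1.46 and 1.78 in the mutant arrays of sets 1 to 3, against 3.0, 2.76 and 2.86 in the wild-type arrays, so that the mutant was higher in set 1 and lower in sets 2 and 3, and differed by -0.46 (SE 0.38, adjusted p = 0.546). The difference of psaC was 0.30 with the 3′ minus 5′ covariate, -0.04 without set 2 and -1.19 without set 1. On the 4 arrays without set 1 psaC passed in limma (adjusted p = 0.00179), as did 8.11% of all tested probe sets. psaI, a small membrane subunit, had the highest difference, 0.23 (SE 0.33), with set differences of 1.51, -0.26 and -0.56. Its levels were 5.67, 5.13 and 4.61 in the mutant arrays of sets 1 to 3, against 4.16, 5.39 and 5.16 in the wild-type arrays, with the wild-type array of set 1 the lowest. psaJ, another small subunit, was high in both set 1 arrays, with levels of 6.17, 3.70 and 3.52 in the mutant and 5.67, 3.94 and 4.05 in wild type, and differed by -0.09 (SE 0.20).

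The cytochrome b6f complex carries electrons between the photosystems. Its 6 genes were divided evenly, 3 below and 3 above 0, with a median of -0.02 and set medians of 0.71, -0.29 and -0.38. petB, cytochrome b6 itself, had levels of 6.69, 5.64 and 5.74 in the mutant arrays of sets 1 to 3, against 6.46, 6.03 and 5.92 in the wild-type arrays and differed by -0.11 (SE 0.15, adjusted p = 0.719). petD, for subunit IV, lies after petB in the psbB unit, and its levels were 0.09, -1.49 and -1.0 in the mutant arrays of sets 1 to 3, against 0.36, -0.40 and -0.65 in the wild-type arrays. Only the set 1 arrays read petD above the array median, its set differences were -0.27, -1.10 and -0.35, and the fitted difference was -0.57 (SE 0.22, adjusted p = 0.237). petG, a small subunit, had the highest difference at 0.35 (SE 0.26), carried by set 1, where the difference was 1.25. Its levels were 1.77, 2.11 and 1.79 in the mutant arrays of sets 1 to 3, against 0.52, 2.04 and 2.07 in the wild-type arrays. petL, a further small subunit, differed by 0.25 (SE 0.24), and petA, cytochrome f, by 0.08 (SE 0.22). petN, a very small subunit, had levels of 1.55, 0.28 and 0.21 in the mutant and 0.96, 1.47 and 1.16 in wild type, higher in the mutant in set 1 and lower in sets 2 and 3, and differed by -0.52 (SE 0.30).

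The ATP synthase makes ATP from the proton gradient across the thylakoid membrane. Its 6 genes had differences between -0.23 and 0.08, the narrowest range of the complexes with more than 1 gene, with a median of -0.08 and set medians of 0.30, -0.09 and -0.55. atpB, the catalytic beta subunit, had levels of 7.01, 7.02 and 7.03 in the mutant arrays of sets 1 to 3, against 6.68, 7.13 and 7.19 in the wild-type arrays. The mutant arrays were nearly equal, levels averaged 7.02 ± 0.01 in the mutant and 7.0 ± 0.28 in wild type (SD, n = 3 each), and the difference was 0.02 (SE 0.14, adjusted p = 0.954). The alpha subunit gene atpA had levels of 5.95, 4.03 and 3.46 in the mutant arrays of sets 1 to 3, against 5.68, 4.29 and 4.08 in the wild-type arrays, high in set 1 in both genotypes, and a difference of -0.21 (SE 0.18, adjusted p = 0.575). atpF, of the peripheral stalk, had the lowest difference at -0.23 (SE 0.24), with set differences of 0.05, 0.29 and -1.02. Its levels were 4.68, 3.24 and 1.70 in the mutant and 4.62, 2.95 and 2.72 in wild type. atpI, of the membrane part, had the highest difference at 0.08 (SE 0.26), which was -0.04 with the median division undone, and levels of 1.08, 1.72 and 1.20 in the mutant and 0.12, 1.78 and 1.84 in wild type. atpH, of the rotating ring, differed by -0.17 (SE 0.16), and atpE, of the central stalk, by 0.07 (SE 0.16).

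The NDH complex drives cyclic electron flow around photosystem I. Of its 10 genes 6 were below and 4 above 0, with a median of -0.05 (0.27 with the 3′ minus 5′ covariate) and set medians of 0.74, -0.30 and -0.60. ndhH, a subunit of the hydrophilic arm, had levels of 1.13, 0.03 and -0.60 in the mutant arrays of sets 1 to 3, against 1.70, 0.50 and 0.26 in the wild-type arrays. The mutant was below its wild-type partner in every set (-0.57, -0.46 and -0.86), with a difference of -0.63 (SE 0.16, adjusted p = 0.129). ndhF, a large membrane subunit, had the lowest difference but the sets disagreed: its levels were 0.35, -1.22 and -1.62 in the mutant arrays of sets 1 to 3, against -0.52, 0.50 and -0.35 in the wild-type arrays, with a difference of -0.71 (SE 0.42, adjusted p = 0.403). That difference was 0.12 with the 3′ minus 5′ covariate, -0.20 without set 2 and -1.50 without set 1. On the 4 arrays without set 1 ndhF passed in limma (adjusted p = 0.00413), as did 8.11% of all tested probe sets. ndhE, another membrane subunit, had the highest difference of all plastid genes at 0.70 (SE 0.33, adjusted p = 0.316), with levels of 4.12, 2.21 and 1.70 in the mutant and 2.48, 1.25 and 2.20 in wild type. ndhC, ndhK and ndhJ, which form a unit, were all above 0, at 0.10 (SE 0.18), 0.43 (SE 0.34) and 0.53 (SE 0.39). In this unit set 1 carried the values, with ndhJ differing by 1.90, 0.38 and -0.71 in sets 1 to 3. ndhD, a membrane subunit, had levels of 5.94, 2.72 and 2.68 in the mutant arrays of sets 1 to 3, against 4.90, 3.14 and 3.47 in the wild-type arrays, so both set 1 arrays were high, and it differed by -0.06 (SE 0.30). ndhG, ndhA and ndhI differed by -0.33 (SE 0.23), -0.07 (SE 0.17) and -0.05 (SE 0.14).

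rbcL, the large subunit of the carbon-fixing enzyme Rubisco, had levels of 4.38, 4.30 and 4.48 in the mutant arrays of sets 1 to 3, against 3.13, 4.79 and 5.05 in the wild-type arrays. The mutant arrays were nearly equal, while the wild-type array of set 1 was well below the other wild-type arrays. The difference was 0.06 (SE 0.31, adjusted p = 0.933). With quantile normalization it was -0.15, and without set 1 it was -0.53. On the 4 arrays without set 1 rbcL passed in limma (adjusted p = 0.0489), as did 8.11% of all tested probe sets.

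Among the RNA polymerase genes 3 were below and 1 above 0, with a median of -0.14 and set medians of 0.50, -0.49 and -0.43. rpoB, for the beta subunit, had levels of 0.50, -2.57 and -1.72 in the mutant arrays of sets 1 to 3, against 0.90, -1.41 and -0.71 in the wild-type arrays and a difference of -0.85 (SE 0.22, adjusted p = 0.145). It was lower in the mutant in each set, at -0.40, -1.16 and -1.01. rpoB was the dimmest probe set that the filter kept, rank 13648 of the 13648 tested by mean level. rpoC1 and rpoC2 follow rpoB in the same unit and encode the subunits that complete the catalytic core. They differed by 0.05 (SE 0.23) and -0.10 (SE 0.23), the first being -0.16 with quantile normalization, and rpoC1 had levels of 4.87, 4.49 and 4.15 in the mutant and 4.04, 4.81 and 4.53 in wild type. The difference of rpoB minus that of rpoC1 was -1.23, -0.83 and -0.64 in sets 1 to 3, a gap of -0.90 ± 0.30 (SD, n = 3 sets). This gap was not tested: rpoB was picked as the lowest of its unit, and an exact paired permutation test over 3 sets could give p = 0.25 at the least. The alpha subunit gene rpoA lies in the large ribosomal protein unit, had levels of 5.59, 5.28 and 5.30 in the mutant and 5.24, 5.74 and 5.73 in wild type, and differed by -0.18 (SE 0.18).

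The ribosomal protein genes encode part of the bacterial-type ribosome that translates these messages. Of 7 genes of the large subunit 4 were below and 3 above 0 (median -0.02), and of 8 of the small subunit 6 were below and 2 above (median -0.03). All 15 were lower in the mutant in sets 2 and 3, and 12 were higher in set 1. rps14, which is cotranscribed with psaA and psaB, had the lowest difference of all plastid genes in the fit over all sets. The gene is dim, at rank 12936 of the 13648 tested by mean level. Its levels were 0.06, -2.0 and -1.07 in the mutant arrays of sets 1 to 3, against 1.26, -0.84 and -0.67 in the wild-type arrays, the difference was -0.92 (SE 0.22, adjusted p = 0.114), and set differences were -1.20, -1.17 and -0.40. Set 3 showed the smallest gap, and without it rps14 passed in limma (-1.18, adjusted p = 0.0296), as did 1.52% of all tested probe sets. In other fits rps14 was not the lowest. With the offset of 50 it differed by -0.75 and psbB by -0.88, and without set 2 by -0.80 and psbB by -0.90. The gap between the differences of rps14 and psaB was -1.79, -1.08 and -0.10 in the 3 sets. In the large subunit rpl36 had levels of 4.22, 3.97 and 3.90 in the mutant arrays of sets 1 to 3, against 4.83, 4.31 and 4.24 in the wild-type arrays, with no overlap between genotypes and a difference of -0.43 (SE 0.14, adjusted p = 0.199). rpl16, from the same unit as rpl36, had the highest difference at 0.54 (SE 0.45), carried by set 1, with set differences of 2.31, -0.13 and -0.55. Its levels were 5.79, 4.68 and 4.21 in the mutant arrays of sets 1 to 3, against 3.49, 4.81 and 4.77 in the wild-type arrays, and the wild-type array of set 1 was the lowest. rps2, of the ATP synthase unit, had the highest difference in the small subunit, 0.17 (SE 0.33), which was -0.05 with quantile normalization, and levels of 4.61, 3.76 and 3.47 in the mutant and 3.22, 3.90 and 4.21 in wild type. rps15 and rpl20 are examples of set differences that cancelled in the fit: rps15 differed by 1.58, -0.61 and -0.99 and rpl20 by 1.42, -0.28 and -1.19 in sets 1 to 3. rpl22, which like rpl36 was lower in the mutant in every set, differed by -0.29 (SE 0.13). The other small-subunit genes, rps3, rps4, rps16, rps18 and rps19, lay between -0.19 (rps16) and 0.12 (rps4), and the other large-subunit genes, rpl14, rpl32 and rpl33, between -0.21 (rpl33) and 0.05 (rpl14).

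The remaining genes serve other tasks. accD, a subunit of the acetyl-CoA carboxylase of fatty acid synthesis, had levels of 3.53, 1.95 and 1.0 in the mutant arrays of sets 1 to 3, against 2.66, 2.24 and 1.95 in the wild-type arrays and differed by -0.12 (SE 0.29, adjusted p = 0.85). clpP, the proteolytic subunit of the Clp protease, differed by 0.10 (SE 0.27) with levels of 6.20, 4.98 and 5.21 in the mutant and 5.11, 5.58 and 5.39 in wild type. matK, a maturase for group II introns, had the highest difference of this group at 0.30 (SE 0.21), and its mutant arrays were level at 6.02, 6.05 and 6.06 while wild type read 5.06, 5.89 and 6.28. ycf4, an assembly factor of photosystem I, had levels of 3.45, 1.17 and 0.80 in the mutant arrays of sets 1 to 3, against 3.64, 1.17 and 1.36 in the wild-type arrays and the lowest difference of the group, -0.25 (SE 0.16, adjusted p = 0.436). ycf3, a second such assembly factor, differed by 0.13 (SE 0.29), ccsA, of cytochrome c maturation, by 0.14 (SE 0.24), and cemA, an envelope membrane protein gene, by -0.07 (SE 0.20). The median of these 7 genes was 0.10 as deposited and -0.10 with quantile normalization.

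**Figure D2:**
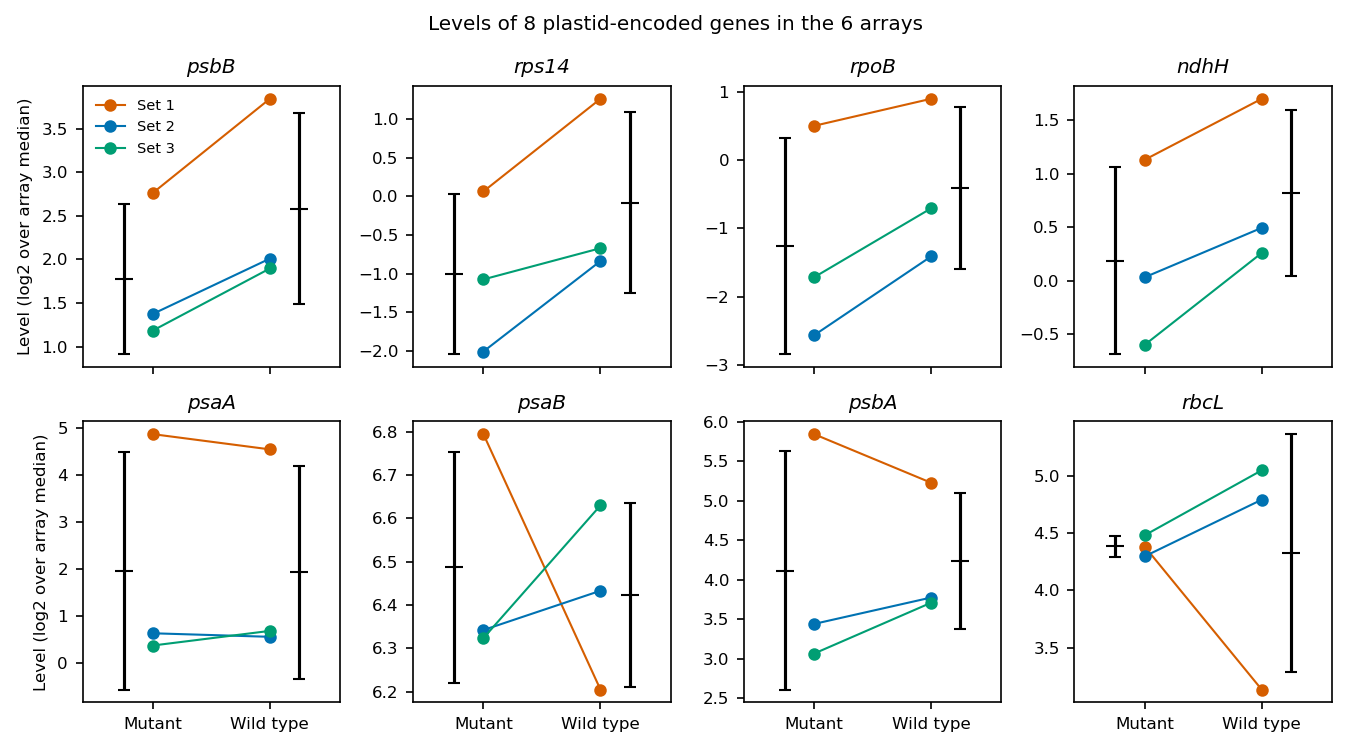
Level (log2 signal over the array median) of 8 plastid-encoded genes in the mutant and wild-type arrays, with the 2 arrays of a set joined by a line; black marks are means ± SD (n = 3), and each panel has its own vertical scale. psbB, rps14, rpoB and ndhH are lower in the mutant in every set, whereas psaA differs mainly between set 1 and the other sets.

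Along the transcription units the fitted differences were spread as follows, and no gap between genes of a unit was tested. All 5 genes of the psbB unit, which share a precursor RNA, were below 0, where 41.7% of all tested probe sets were. psbB lay at -0.81, psbT at -0.63, psbH at -0.06, petB at -0.11 and petD at -0.57. The sign of petB depended on the fit, at 0.07 with the 3′ minus 5′ covariate and 0.02 without set 2. The gap between the differences of psbB and psbH was -1.14, -0.83 and -0.27 in sets 1 to 3, and between psbB and petB -1.31, -0.24 and -0.53. In the psaA unit rps14 lay at -0.92 with psaA and psaB at 0.03 and 0.06. The probe sets of rps14 and rpoB are dim, and their gaps to other genes of their units depended on the processing. With the offset of 50 rps14 lay at -0.75 and psaB at -0.06, and rpoB at -0.60 and rpoC1 at -0.08. The 4 genes of the psbE unit were all below 0 and close together, between -0.21 and -0.09. The 7 genes of the ndhH unit ranged between -0.63 for ndhH and 0.70 for ndhE. Of genes whose promoters are known as targets of the plastid-encoded polymerase, 6 of 12 were below 0 (median -0.03). Of those assigned to the nucleus-encoded polymerases 4 of 5 were (median -0.10), where 41.7% of all tested probe sets were below 0. The second class held rpoB, rpoC1 and rpoC2 of a single unit, accD and rps15. The first also held genes that share a unit, such as psaA and psaB, so the counts are not of independent promoters. Set medians were 0.55, -0.16 and -0.31 for the first class and 0.83, -0.52 and -0.95 for the second. The difference between the classes was not tested.

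**Figure D3:**
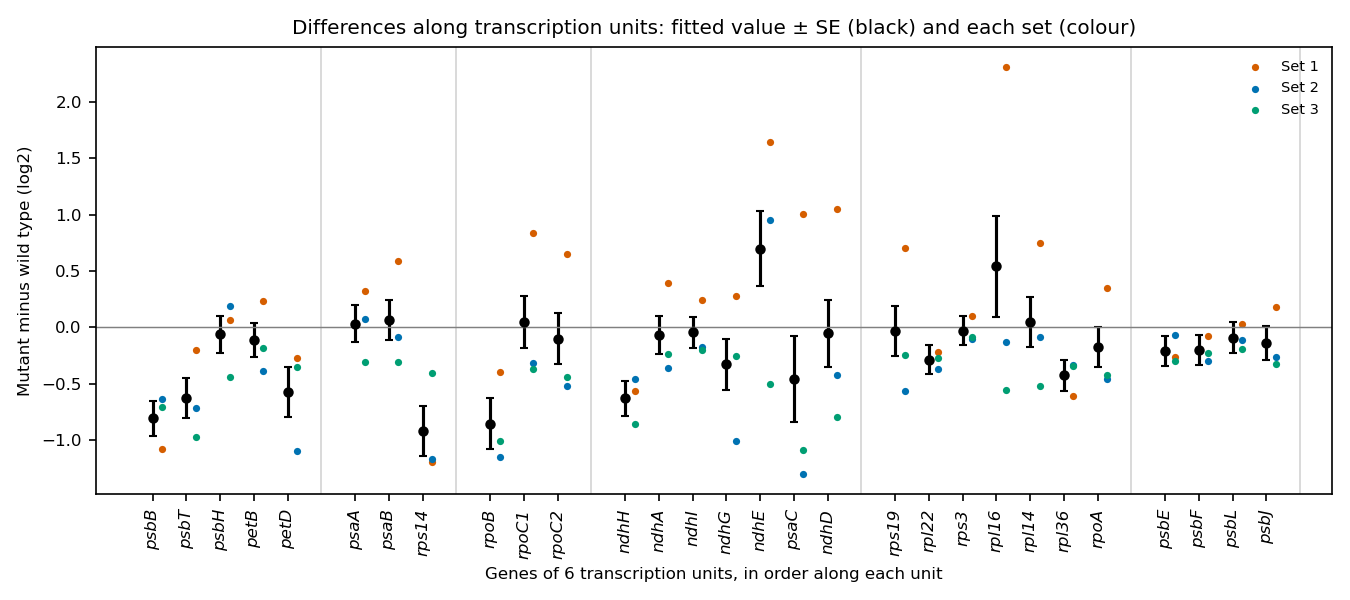
Difference between mutant and wild type (log2) of genes in 6 transcription units, in their order along each unit; black points are fitted differences with SE and coloured points are the 3 sets. psbB, psbT and petD lie below psbH and petB of their unit, rps14 and rpoB lie below the other genes of theirs, and the 4 psbE unit genes lie close together. The probe sets of rps14 and rpoB are dim.

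Plastid transcripts varied widely between experimental sets within each genotype. The range over the 3 mutant arrays exceeded 1 log2 unit in 37 of 69 plastid genes, as did the range over the 3 wild-type arrays, where 8.41% of all tested probe sets did so in the mutant and 13.9% in wild type. A limma F-test for the experimental set, added after seeing the values, called 25 of the 69 genes at an adjusted p under 0.05, against 8.61% of all tested probe sets. psaA had the smallest adjusted p of them (limma F-test, adjusted p = 7.20e-05), followed by ycf4 (adjusted p = 0.00114). psbB, rpoB, psbA and rps14 also passed (limma F-test, adjusted p = 0.00341, 0.00367, 0.00636 and 0.00798). The dim genes rpoB and rps14 had ranks 13648 and 12936 of the 13648 tested by mean level over all arrays. High set 1 arrays raised that mean and so helped both genes pass the filter. Their F-tests therefore cannot serve as separate evidence of a set effect. Without set 1 the test between the remaining sets called 0 of 69 plastid genes, against 0.542% of all tested probe sets. Without set 2 it called 39, against 24.3% of all, and without set 3 it called 31, against 8.54%.

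Set 1 did not shift all plastid genes the same way. In 27 genes (39.1%) the set 1 array was the highest of its genotype in both mutant and wild type, against 27.6% of all tested probe sets. They included all 5 genes of the psbB unit, 5 of the 7 ndhH unit genes, psbA, psbD, atpA, atpF, atpH, psaA, psaJ and rpoB. In 15 genes (21.7%) it was the lowest in both, among them psbN, psbZ, rpl32, rps3, ndhA, ndhI and atpB, against 24.9% of all tested probe sets, so this count lay near the background. In 21 genes (30.4%) it was the highest mutant array but the lowest wild-type array, a pattern found in 6.39% of all tested probe sets. This group held clpP, rpl16, rpl20, rps15, rps18, rps19, rps2, rpoA, rpoC1, rpoC2, psaB, psaI and others. Highest in set 1 in both genotypes were 10 of 20 photosystem genes and 3 of 15 ribosomal protein genes, and the difference between these shares was not tested.

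**Figure D4:**
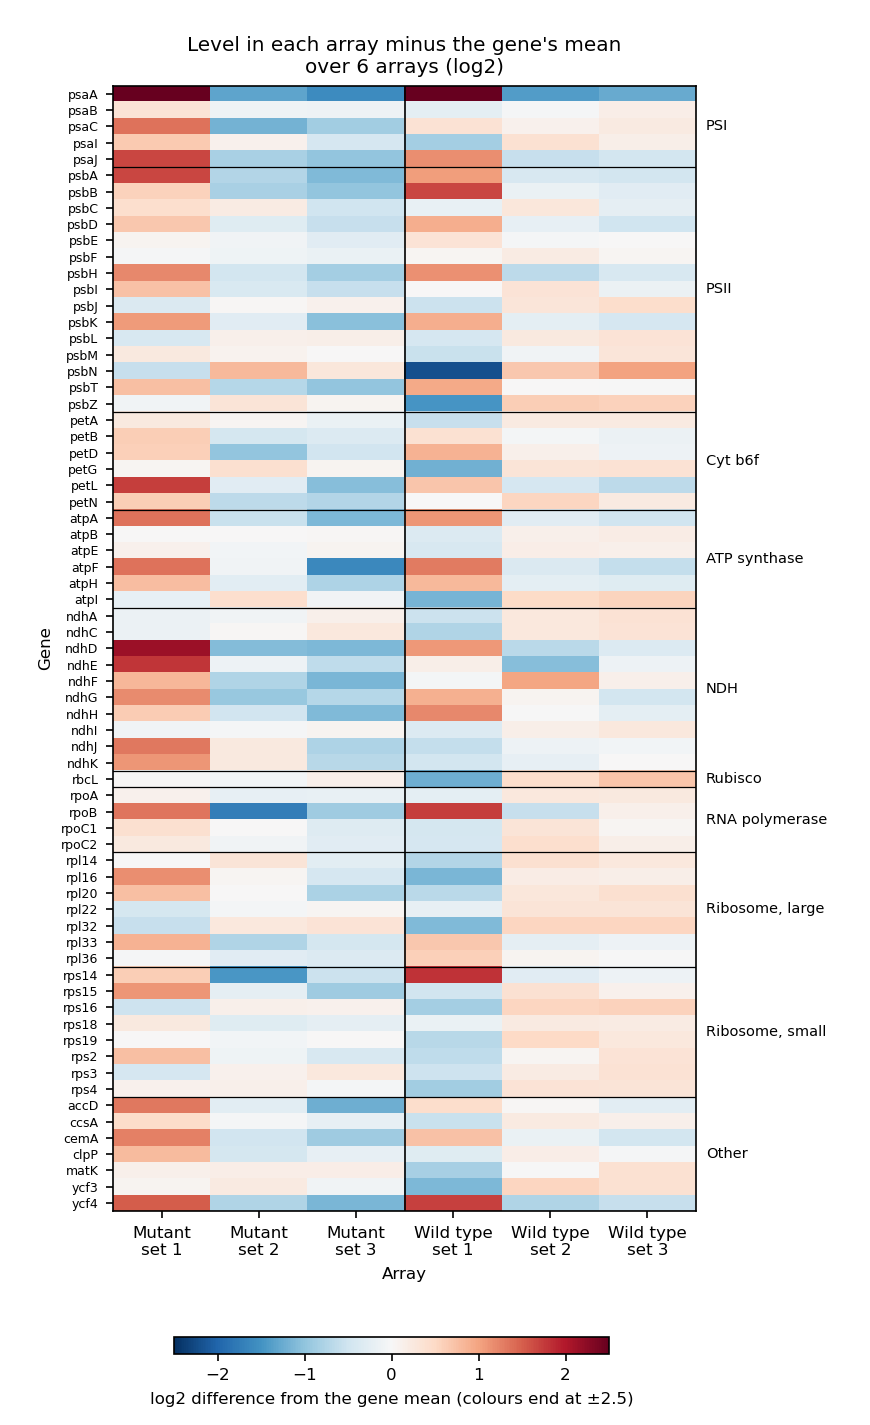
Level of each of the 69 plastid-encoded genes in each array minus that gene's mean over the 6 arrays (log2 units, colours end at 2.5 either side of 0), with genes in rows by complex and arrays in columns. The set 1 columns of both genotypes are high for psaA, psbA, the psbB unit and ycf4, while the wild-type set 1 column is low for most ribosomal protein genes.

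The number of calls depended on which sets entered the fit and on the covariate. Without set 1, 8 plastid genes passed in limma and all 8 were lower (ndhF, petN, psaC, psbB, psbT, rbcL, rpl20 and rps15), a share of 11.6% against 8.11% of all tested probe sets, and 68 of 69 lay below 0. Without set 3, 4 passed, rps14 lower and ndhE, ndhJ and ndhK higher, against 1.52% of all. Without set 2 psbB alone passed, against 0.784% of all. With the covariate for 3′ minus 5′ signal psbB was lower and clpP, psaI, psbZ and rpl16 higher, against 1.42% of all, and 52 of 69 genes lay above 0. The difference of that control signal, mutant minus wild type, was above 0 in set 1 and below 0 in sets 2 and 3, as was the plastid median. With the division by the array median undone, or with the offset of 50, psbB alone passed, against 0.542% of all in each case.

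The few tested nuclear genes of the same complexes had differences above 0 in the deposited scaling, as did 58.3% of all tested probe sets. Of 34 listed nuclear subunits of photosynthetic complexes 6 were tested, all 6 above 0 and 0 past the test in limma, with a median of 0.32 and set medians of 0.25, 0.40 and 0.32. That median was 0.14 under quantile normalization and 0.20 once the arrays' median division was undone. The largest were PSAN, of photosystem I, at 0.57 (SE 0.15, adjusted p = 0.152) and PSBY, of photosystem II, at 0.47 (SE 0.15, adjusted p = 0.198). All 3 tested nuclear NDH subunit genes, of 9 listed, were above 0, NdhN at 0.27 (SE 0.14), NdhL at 0.16 (SE 0.14) and NdhS at 0.02 (SE 0.14). Their median of 0.16 was 0.01 with quantile normalization. The only tested gene of 21 listed for nucleus-encoded plastid ribosomal proteins, AT2G43030, differed by 0.26 (SE 0.14). Of 9 listed sigma factor and phage-type polymerase genes only 1 was tested, the polymerase gene AT5G15700, which differed by -0.20 (SE 0.23). Of 16 listed genes of plastid RNA maturation 2 were tested. These, AT2G37220 and AT5G42310, differed by 0.14 (SE 0.15) and -0.01 (SE 0.14). Of 13 listed genes of polymerase-associated proteins 0 had a named probe set that was tested. Of 8 listed root genes 3 were tested. PYK10 and NAI2, of root endoplasmic reticulum bodies, differed by 0.33 (SE 0.15) and 0.41 (SE 0.16), and the peroxidase gene AT5G17820 by -0.14 (SE 0.27). Mitochondrial genes, a list chosen by symbol after seeing the files, had 5 tested probe sets of 22, with 4 above 0, 0 past the test in limma and set medians of 1.05, -0.08 and -0.41.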

How the data were processed

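Transcript levels were measured on Affymetrix arrays, 1 per sample. Per the submitters' processing notes signals came from MAS5. The deposited log2 values have a median of 0 in each column, and the sources used here give neither the software's version nor how the division was done. With the smallest step taken as 0.1 signal unit, array medians were 185.55 to 217 and 2% trimmed means 500.04 to 500.05. Division by the median removes a change shared by most transcripts. Per the labels cRNA was made with the manufacturer's standard protocol. Such protocols prime from poly(A), so plastid levels reflect what was primed. In all, 1 value that stood for a signal of 0 was set to the smallest step.

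Names came from the platform annotation, updated through RefSeq's TAIR10.1 table. Of 22746 probe sets, 13513 had a single gene, 503 had several and 8730 had none. Of the 13513, RefSeq held 13436. No sequence or genome build came with the files, so none is printed.

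The fit used limma 3.58.1 (R 4.3.3; lmFit, then eBayes with a trend) on 13648 probe sets, the brightest 60% by mean over the 6 arrays. Genotype was the effect and experimental set the block, with 6.79 prior degrees of freedom on top of 2 residual ones, and Benjamini-Hochberg adjustment ran over all tested probe sets. All 69 plastid genes were tested. The labels give the shared set, and mutant and wild-type deviations correlated by 0.67, 0.28 and 0.62 within sets 1 to 3. Across sets they correlated by -0.61 to 0.37. The highest of these, mutant set 3 with wild-type set 2, was above the value within set 2. The fit was run on simulated arrays with independent noise and added changes of 1 and 2 log2 units. These sizes exceed every plastid difference in the fit over all sets. That run therefore does not bear on smaller differences or on cotranscribed genes, and its outcome is not given here. SDs cover 3 arrays, and the number of arrays limits the precision. Array values are given for the highest and lowest difference and smallest p of each complex and for genes fixed by role, 31 in all, and for further genes named after their values were seen. Members and lists were chosen with earlier results of these data known, so no list was tested. The 10 alternatives changed the block, normalization, filter, offset, covariate or sets. Fits with a set left out used 4 arrays. These fits and the covariate fit had 1 residual degree of freedom and 10.8 to 40.2 prior ones. The F-test for sets and the mitochondrial list were added after seeing the data.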

Additional observations from a re-analysis of the deposited data

How the results depend on the processing

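The count of plastid genes past the threshold, 0 as reported, was 1 with the median division undone, 1 with the offset of 50, 5 with the 3′ minus 5′ covariate, and between 1 and 8 with a set left out. It was 0 with quantile normalization, among the brightest 40%, without a filter and without the block. Pairing by set changed no call of a plastid gene, 0 with the block and 0 without it, while all tested probe sets gave 72 calls with the block and 1 without it. The fitted differences, with a plastid median of -0.06, are the same in both by construction. Calls among all probe sets were 14 without a filter, 194 with the covariate, and 1107 without set 1. The plastid median was -0.22 with quantile normalization, 0.23 with the covariate, and -0.34 to 0.13 with a set left out. Undoing the median division put the median of all tested probe sets at -0.07 in place of 0.06. The plastid median relative to it was -0.12 either way by construction, since each array shifts by a constant. With quantile normalization that relative median was -0.21. rbcL, at 0.06 as reported, ranged from -0.53 to 0.38 with a set left out, and passed at -0.53. In set 1, 47 to 56 plastid genes were higher under the 3 scalings, and all 69 were lower in set 3 under each. No cause of these changes was tested. Dim genes (rpoB, rps14, petD and ndhF) lie near the filter limit, and 3 arrays a genotype limit every value.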

Other observations

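The 8 plastid probe sets with 2 gene identifiers mostly belong to the inverted repeat, a segment present as 2 copies, and 7 of them were tested. All 7 were higher in the mutant in set 1 and lower in set 3, and 6 were lower in set 2. The 2 probe sets of rps12, a small-subunit ribosomal protein gene whose message is trans-spliced, differed by 1.84 and 2.27 in set 1, by -0.29 and 0.32 in set 2 and by -0.72 and -0.57 in set 3. rps7 differed by 2.15, -0.12 and -0.45 in sets 1 to 3, and ycf2, a large gene of disputed function, by 1.19, -0.90 and -0.87. rpl2 and rpl23, of the large ribosomal subunit, had fitted differences of -0.07 (SE 0.17) and -0.12 (SE 0.16). None of the 7 passed the test in limma, and none had an unadjusted p under 0.05.

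Of the mitochondrial probe sets tested, cox1, of cytochrome c oxidase, differed by 2.08, -0.10 and -0.70 in sets 1 to 3 and nad4, of complex I, by 1.05, 0.27 and -0.68. In set 1 both were above 0 and in set 3 both were below 0, as were most plastid genes. Of several probe sets of nad1, another complex I gene, the only tested one differed by -0.07, 0.75 and 0.03 in sets 1 to 3. Of 22 mitochondrial probe sets 5 were bright enough to be tested.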
